A study of Rattus norvegicus with 64 samples.

Results

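10 genes, Fam111a, Mei1, Ghdc, Klhl22, Hdhd2, Ube2v1, Dpyd, Chst8, Arsb and Syt5, were followed through RNA sequencing libraries of rat hippocampus and cortex as markers of the line a rat belonged to, ApoE3 or ApoE4. They were chosen because their levels differed between ApoE4 and ApoE3 rats that had received phosphate-buffered saline (PBS), so the difference in PBS rats is given as a description. They are 10 of the 32551 rat gene rows in the deposited count tables. The series held 64 libraries from 32 rats, with a hippocampal and a cortical library from each rat. The 4 groups of rats were ApoE3 with PBS, ApoE3 with doxorubicin, ApoE4 with PBS and ApoE4 with doxorubicin, each of 8 rats, 4 male and 4 female. Doxorubicin rats received 2 mg/kg each week for 4 weeks from an age of 5 weeks, and tissue was collected 5 to 6 weeks after the last dose. The labels give neither the strain of the lines nor whether rats of a line came from separate litters. The rat numbers of a line, sex and treatment did not interleave with those of another, so a batch that followed the numbering cannot be told apart from the line.

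Apolipoprotein E carries lipids between cells in the brain, where astrocytes make most of it, and ApoE3 and ApoE4 are forms of the human protein that differ in lipid binding and in their association with Alzheimer disease. Doxorubicin is an anthracycline chemotherapy drug that traps topoisomerase II on DNA. The 10 genes belong to no shared pathway. Fam111a encodes a protein that works at replication forks, and Mei1 a protein needed for the DNA breaks of meiosis. Klhl22 and Ube2v1 encode parts of the ubiquitin system, and Dpyd, Chst8, Arsb and Hdhd2 encode enzymes or enzyme-like proteins of nucleotide, sugar and phosphate chemistry. Syt5 encodes a membrane protein of secretory vesicles, and Ghdc a protein of poorly known function.

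The libraries held 10.8M to 20.4M counts (median 14.5M), of which 0.932% to 2.44% were spike-in sequences. Levels are in CPM, counts set relative to the library total and scaled by the TMM method over the 64 libraries. The rat Apoe row held 3.11 to 8.75 CPM, and the row of the ApoE3 donor sequence held 1227 to 3137 CPM in libraries of both genotypes. The median of the donor row was higher in ApoE3 than in ApoE4 libraries, at 2452 and 2025 CPM in hippocampus and 1675 and 1412 CPM in cortex. The ranges of both rows overlapped between the lines within each region, so neither row set the labelled genotypes fully apart. Hippocampal and cortical markers followed the labelled tissue as sums, though not each on its own. Hippocampal libraries held 67.5 to 114 CPM of Prox1, a transcription factor of dentate granule neurons, and cortical ones 10.3 to 18.9 CPM. For Cux2, a transcription factor of upper-layer cortical neurons, these ranges were 24.7 to 48.9 and 88.4 to 133 CPM. The ranges of the listed cortical marker Fezf2 overlapped, at 20.5 to 42.4 and 23.3 to 40.3 CPM. Those of Calb2, Neurod1, Zbtb20 and Rorb overlapped too. The sum of 5 hippocampal markers was 191 to 304 CPM in hippocampal and 45.7 to 84.2 CPM in cortical libraries. The sum of 6 cortical markers was 124 to 195 and 472 to 617 CPM. The summed level of 6 choroid plexus markers, Ttr among them, ran from 5.0 to 12318 CPM over hippocampal libraries, and its part in the results below was not tested. These are bulk tissues, in which fewer cells of a type and less RNA per cell cannot be told apart.

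By the gene order of the RefSeq annotation of the GRCr8 assembly, 7 of the 10 genes lie on other chromosomes than Apoe. Fam111a, Chst8 and Syt5 share its chromosome, with 1045, 158 and 94 other named genes between them and Apoe. The 10 genes spread over 7 chromosomes, and only chromosome 1, with 3 of them, and chromosome 2, with Dpyd and Arsb, held more than 1. The build used by the authors is not given in the sources used here.

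In the doxorubicin rats, which the choice of genes did not use, 9 of 9 genes differed between the lines in hippocampus and 8 of 9 did in cortex, with Fam111a set aside. Fam111a is described by its values alone, because it entered the test through the ApoE4 libraries, where it is high. Fam111a, Mei1, Klhl22, Hdhd2 and Dpyd were higher in ApoE4 rats and Ghdc, Ube2v1, Chst8, Arsb and Syt5 were lower. In hippocampus the 9 of 9 stand beside 3.23% of 14887 tested genes that passed, 1.7% higher and 1.53% lower in ApoE4. In cortex the 8 of 9 stand beside 14.1% of 14877 tested genes, 7.92% higher and 6.18% lower, and Chst8 was the gene that did not pass. The test was the edgeR quasi-likelihood test on 8 against 8 libraries with sex as a covariate, and a gene passed at a Benjamini-Hochberg adjusted p under 0.05. The median absolute log2 change of these 9 genes was 0.55 in hippocampus and 0.62 in cortex, beside 0.08 and 0.09 over all tested genes. The labels do not say whether the rats of a group were housed or handled together. The p-values weigh each difference against the spread between rats taken as independent, which does not cover an effect shared by a group.

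Libraries of the 2 lines stood fully apart for most of the genes. In the doxorubicin rats, 7 of the 9 genes other than Fam111a had no overlap between the 8 ApoE4 and the 8 ApoE3 hippocampal libraries, beside 1.08% of the tested genes. In cortex 8 of the 9 had none, beside 2.21%, and Fam111a had none in either region. Dpyd and Syt5 overlapped in hippocampus and Chst8 overlapped in cortex. In the PBS rats 9 of all 10 genes stood apart in each region, beside 1.06% of tested genes in hippocampus and 2.2% in cortex, which describes the libraries the genes were chosen on. Over all 16 against 16 libraries, which include those PBS libraries, 8 of 10 stood apart in each region, beside 0.432% of tested genes in hippocampus and 0.554% in cortex. This count is in part fixed by the choice of the genes and is a description. Arsb was the gene added to the overlapping ones in cortex.

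**Figure D1:**
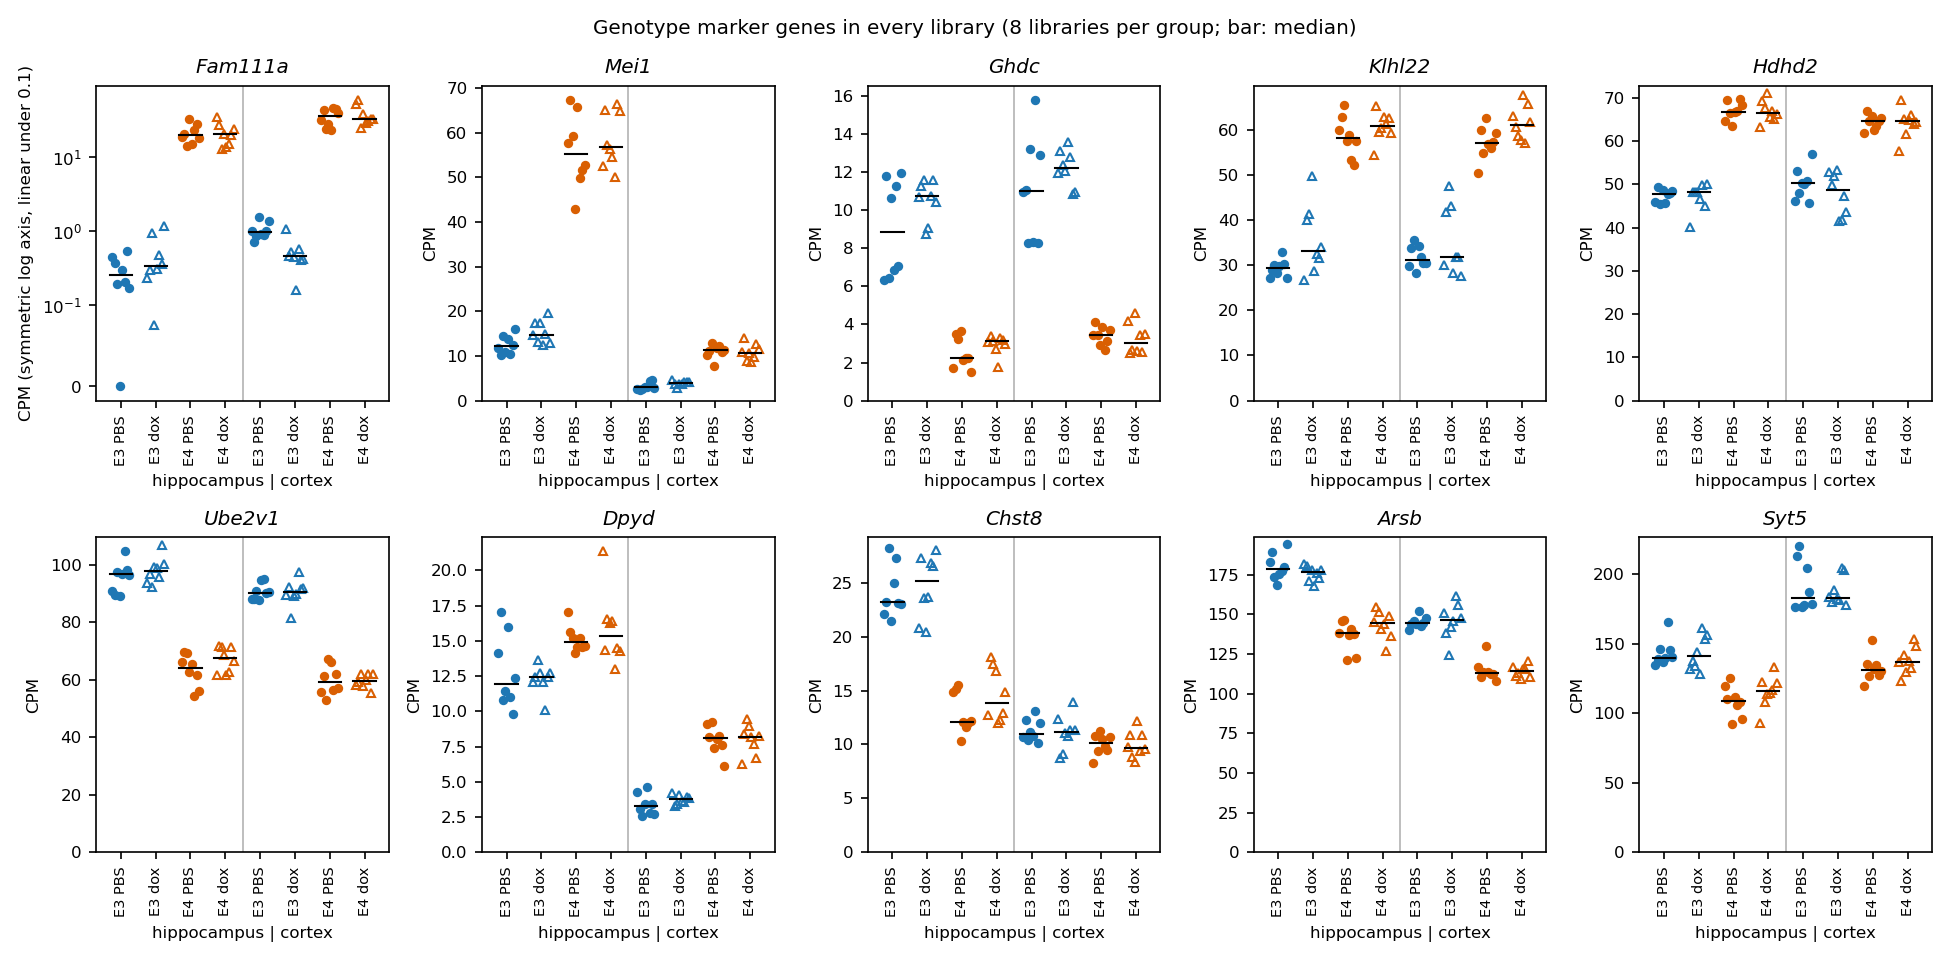
Level in CPM of each of the 10 genes in every library, by region (hippocampus left of the grey line, cortex right of it), line (E3, E4) and treatment (PBS filled circles, doxorubicin open triangles), with 8 libraries per group and a bar at the median. The axis of Fam111a is symmetric-logarithmic, linear below 0.1 CPM, and the other axes start at 0. Fam111a shows the widest gap between lines, at most 1.54 CPM in any ApoE3 library and at least 13.1 CPM in any ApoE4 library. Over both treatments the ranges of Dpyd and Syt5 in hippocampus and of Chst8 and Arsb in cortex overlap.

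The 3 genes with the widest line differences were Fam111a, Mei1 and Ghdc. The bases before their annotated starts are shown here because they are the most direct picture of the regulatory sequence that the reference holds for genes whose RNA level separated the lines. They come from RefSeq on GRCr8, read 5′ to 3′ on the strand of the gene, 250 bases each, and are the reference assembly's sequence, not that of the ApoE3 or ApoE4 rats. Capitals mark exact matches on either strand to 4 motifs: the CCAAT box (CCAAT), the GC box (GGGCGG), the TATA box (TATAAA) and the E-box (CACGTG).
Fam111a, chr1:219065389-219065638, plus strand: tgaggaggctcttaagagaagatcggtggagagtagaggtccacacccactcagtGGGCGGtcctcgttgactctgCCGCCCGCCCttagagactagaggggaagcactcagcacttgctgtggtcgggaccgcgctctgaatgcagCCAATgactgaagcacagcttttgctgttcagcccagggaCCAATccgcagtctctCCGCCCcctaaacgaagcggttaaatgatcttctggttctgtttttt
Mei1, chr7:115470006-115470255, plus strand: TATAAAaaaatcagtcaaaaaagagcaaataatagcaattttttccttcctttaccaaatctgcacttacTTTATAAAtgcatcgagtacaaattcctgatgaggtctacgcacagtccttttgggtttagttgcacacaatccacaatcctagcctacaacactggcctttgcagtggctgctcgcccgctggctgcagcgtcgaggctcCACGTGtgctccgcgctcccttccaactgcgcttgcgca
Ghdc, chr10:86198142-86198391, minus strand: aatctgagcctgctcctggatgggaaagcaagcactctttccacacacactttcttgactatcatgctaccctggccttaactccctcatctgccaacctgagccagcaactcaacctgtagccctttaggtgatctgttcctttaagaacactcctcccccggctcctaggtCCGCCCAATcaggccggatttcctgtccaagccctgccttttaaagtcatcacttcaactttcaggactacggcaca
Fam111a has 4 GC boxes, of which a pair overlap, and 2 CCAAT boxes. Mei1 has 3 TATA boxes, of which a pair overlap on opposite strands, and 1 E-box. Ghdc has 1 GC box and 1 CCAAT box, which overlap. Of all 33469 promoter windows in the same table, 34.0% held a CCAAT box, 30.5% a GC box, 12.9% a TATA box and 5.59% an E-box. A match is a string of letters and does not show that a factor binds. The table had an entry for 8 of the 10 genes, all but Arsb and Syt5. RefSeq also places noncoding genes over Mei1, Hdhd2, Ube2v1, Chst8, Arsb and Syt5, and without a stated strand setting reads of overlapping genes cannot be told apart.

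Fam111a (ENSRNOG00000012067) encodes a nuclear protease that works at replication forks and restricts some viruses. In hippocampus of doxorubicin rats the lowest, median and highest libraries were 0.075, 0.33 and 1.18 CPM in ApoE3 and 13.1, 20.4 and 35.8 CPM in ApoE4. In cortex they were 0.16, 0.45 and 1.07 CPM in ApoE3 and 25.0, 32.8 and 59.4 CPM in ApoE4. Every ApoE4 library was above every ApoE3 library, and the highest ApoE3 library in either region, 1.54 CPM, was in cortex of a PBS rat. The log2 change of ApoE4 against ApoE3 was 5.40 (SE 0.33, n = 8 per line) in hippocampus and 6.19 (SE 0.21) in cortex. In PBS rats the differences were 6.23 (SE 0.30) and 5.09 (SE 0.19).

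The ApoE3 libraries held few Fam111a reads, 0 to 17 per hippocampal library and 2 to 21 per cortical library, while ApoE4 libraries held 186 to 600 and 330 to 809. The fold therefore rests on few ApoE3 reads. Of the 8 ApoE3 doxorubicin libraries, 2 in hippocampus and 1 in cortex had at least 10 counts, so Fam111a passed the filter on low counts through the ApoE4 libraries, where it is high. A difference had to follow, so no test of it is given. Among ApoE4 rats the coefficient of variation was 27.4% to 36.5% in the 4 groups.

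Mei1 (ENSRNOG00000007003) encodes a protein needed for the DNA breaks that start meiotic recombination. The hippocampal libraries of doxorubicin rats, given as lowest, median and highest, were 12.5, 14.8 and 19.7 CPM in ApoE3 and 50.2, 56.8 and 66.5 CPM in ApoE4. Cortical levels were 2.84, 3.96 and 4.73 CPM in ApoE3 and 8.74, 10.8 and 13.9 CPM in ApoE4. The lines did not overlap in either region, and the log2 change was 1.93 (SE 0.09, edgeR adjusted p = 5.73e-10) in hippocampus and 1.46 (SE 0.11, edgeR adjusted p = 7.64e-09) in cortex. In PBS rats it was 2.16 (SE 0.11) and 1.80 (SE 0.13).

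Ghdc (ENSRNOG00000018906) encodes a protein with a domain named after the auxin-conjugating GH3 enzymes of plants. Hippocampal levels in doxorubicin rats were, from lowest through median to highest, 8.73, 10.7 and 11.6 CPM in ApoE3 and 1.76, 3.12 and 3.38 CPM in ApoE4. The cortical libraries held 10.8, 12.2 and 13.6 CPM in ApoE3 and 2.49, 3.05 and 4.58 CPM in ApoE4. The lines did not overlap. The log2 change was -1.83 (SE 0.11, edgeR adjusted p = 1.18e-08) in hippocampus and -1.92 (SE 0.12, edgeR adjusted p = 8.39e-11) in cortex, beside -1.85 (SE 0.21) and -1.69 (SE 0.15) in PBS rats. The ApoE3 PBS rats fell into a low and a high set of 4 in hippocampus. Rats 37, 43, 56 and 59 held 6.35, 6.44, 6.88 and 7.07 CPM, and rats 41, 45, 58 and 61 held 11.8, 10.6, 11.2 and 12.0 CPM. Each set had 2 males and 2 females. In cortex rats 43, 56 and 59 were again the lowest, at 8.25, 8.32 and 8.29 CPM, and rat 37 was at 11.0 CPM among the others.

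Klhl22 (ENSRNOG00000001878) encodes an adaptor that brings substrates to the Cullin-3 ubiquitin ligase. In doxorubicin rats the lowest, median and highest hippocampal libraries were 26.8, 33.2 and 49.7 CPM in ApoE3 and 54.5, 60.9 and 65.2 CPM in ApoE4, and the cortical ones were 27.5, 31.7 and 47.6 CPM in ApoE3 and 57.0, 61.1 and 67.6 CPM in ApoE4. The lines did not overlap, but 3 of the 4 ApoE3 doxorubicin males stood above the other ApoE3 rats in both regions. Rats 49, 51 and 52 held 40.1, 41.3 and 49.7 CPM in hippocampus and 41.9, 47.6 and 43.1 CPM in cortex, while the other ApoE3 doxorubicin male, rat 47, held 26.8 and 30.0 CPM. The other 13 ApoE3 rats were at or under 34.0 CPM in hippocampus and 35.6 CPM in cortex. The log2 change was 0.78 (SE 0.09, edgeR adjusted p = 6.22e-05) in hippocampus and 0.80 (SE 0.09, edgeR adjusted p = 1.83e-06) in cortex, and in PBS rats 0.99 (SE 0.05) and 0.84 (SE 0.05). In males alone it was 0.60 (edgeR adjusted p = 0.175) in hippocampus and 0.55 (edgeR adjusted p = 0.00281) in cortex, and in females alone 0.96 and 1.06. The difference between the sexes was not tested.

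Ube2v1 (ENSRNOG00000025580) encodes a ubiquitin-conjugating enzyme variant without a catalytic cysteine, which pairs with Ube2n to build signalling ubiquitin chains. In hippocampus of doxorubicin rats the lowest, median and highest libraries were 92.2, 97.9 and 107 CPM in ApoE3 and 61.7, 67.5 and 71.7 CPM in ApoE4. In cortex they were 81.6, 90.7 and 97.4 CPM in ApoE3 and 55.4, 59.5 and 62.1 CPM in ApoE4. The lines stood apart, with a log2 change of -0.55 (SE 0.04, edgeR adjusted p = 1.88e-07) in hippocampus and -0.62 (SE 0.04, edgeR adjusted p = 6.65e-11) in cortex, beside -0.60 (SE 0.05) in each region of PBS rats. Its close paralog Ube2v2 differed between the lines by -0.02 (SE 0.05, edgeR adjusted p = 0.907) in hippocampus and -0.08 (SE 0.05, edgeR adjusted p = 0.313) in cortex, and how reads that match both copies were counted is not given in the sources used here.

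Hdhd2 (ENSRNOG00000043171) encodes a haloacid dehalogenase-like hydrolase. Hippocampal levels in doxorubicin rats were, from lowest through median to highest, 40.1, 48.3 and 50.0 CPM in ApoE3 and 63.2, 66.6 and 71.2 CPM in ApoE4. The cortical libraries held 41.6, 48.6 and 53.4 CPM in ApoE3 and 57.7, 64.7 and 69.6 CPM in ApoE4. The fold was small but the groups were tight, and the lines did not overlap. The log2 change was 0.51 (SE 0.04, edgeR adjusted p = 6.48e-07) in hippocampus and 0.41 (SE 0.05, edgeR adjusted p = 1.15e-05) in cortex, and in PBS rats 0.50 (SE 0.03) and 0.36 (SE 0.04). Its coefficient of variation was 2.61% to 10.3% over the 8 groups.

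Dpyd (ENSRNOG00000017105) encodes the rate-limiting enzyme of pyrimidine breakdown, which also degrades the drug fluorouracil. The hippocampal libraries of doxorubicin rats, given as lowest, median and highest, were 10.1, 12.4 and 13.7 CPM in ApoE3 and 13.0, 15.4 and 21.4 CPM in ApoE4, so that the ranges overlapped. Cortical levels were 3.30, 3.76 and 4.20 CPM in ApoE3 and 6.22, 8.21 and 9.46 CPM in ApoE4, fully apart. The log2 change was 0.36 (SE 0.08, edgeR adjusted p = 0.0190) in hippocampus and 1.07 (SE 0.10, edgeR adjusted p = 1.94e-07) in cortex. In PBS rats it was 0.24 (SE 0.10) and 1.23 (SE 0.13). The hippocampal libraries of rats 66 (ApoE3, 10.1 CPM) and 10 (ApoE4, 21.4 CPM) were the farthest from their groups, and without rats 10, 31 and 72 the hippocampal change was 0.34 (edgeR adjusted p = 0.0181). The hippocampal library of rat 10 had the highest summed level of 5 meningeal markers, 739 CPM, and the part of this in Dpyd was not tested. The call was lost within each sex, at 0.43 (edgeR adjusted p = 0.238) in males and 0.30 (edgeR adjusted p = 0.346) in females.

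Chst8 (ENSRNOG00000022919) encodes a sulfotransferase for the sugar chains of glycoproteins such as luteinizing hormone. In hippocampus of doxorubicin rats the lowest, median and highest libraries were 20.4, 25.1 and 28.1 CPM in ApoE3 and 12.0, 13.9 and 18.1 CPM in ApoE4, which stood apart. In cortex they were 8.70, 11.2 and 13.9 CPM in ApoE3 and 8.41, 9.67 and 12.2 CPM in ApoE4, which overlapped. The log2 change was -0.76 (SE 0.10, edgeR adjusted p = 0.000169) in hippocampus and -0.18 (SE 0.09, 95% interval -0.37 to 0.02, edgeR adjusted p = 0.209) in cortex. In PBS rats it was -0.90 (SE 0.09) and -0.17 (SE 0.08). In males alone the hippocampal change was -0.51 (edgeR adjusted p = 0.183) and in females alone -1.02 (edgeR adjusted p = 0.000393), and the difference between the sexes was not tested.

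Arsb (ENSRNOG00000011150) encodes arylsulfatase B, a lysosomal enzyme that removes sulfate from dermatan and chondroitin sulfate. The hippocampal libraries of doxorubicin rats, given as lowest, median and highest, were 168, 177 and 182 CPM in ApoE3 and 127, 144 and 155 CPM in ApoE4. Cortical levels were 124, 147 and 162 CPM in ApoE3 and 109, 114 and 121 CPM in ApoE4. The lines stood apart within the doxorubicin rats, at log2 changes of -0.29 (SE 0.03, edgeR adjusted p = 3.93e-05) and -0.37 (SE 0.04, edgeR adjusted p = 5.28e-07), and the PBS values were -0.40 (SE 0.04) and -0.34 (SE 0.04). Over both treatments the cortical ranges met because the library of ApoE3 doxorubicin rat 51, at 124 CPM, lay below that of ApoE4 PBS rat 7, at 130.1 CPM.

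Syt5 (ENSRNOG00000018217) encodes a synaptotagmin, a calcium sensor of vesicle release. Hippocampal levels in doxorubicin rats were, from lowest through median to highest, 128, 141 and 162 CPM in ApoE3 and 92.7, 116 and 133 CPM in ApoE4, so 1 ApoE4 library, rat 32 at 133 CPM, reached into the ApoE3 range. The cortical libraries held 178, 183 and 205 CPM in ApoE3 and 123, 137 and 154 CPM in ApoE4, fully apart. The log2 change was -0.32 (SE 0.05, edgeR adjusted p = 0.00241) in hippocampus and -0.46 (SE 0.04, edgeR adjusted p = 2.40e-08) in cortex, and in PBS rats -0.40 (SE 0.06) and -0.54 (SE 0.05). Within the sexes the hippocampal call was lost, at -0.33 (edgeR adjusted p = 0.133) in males and -0.30 (edgeR adjusted p = 0.123) in females.

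**Figure D2:**
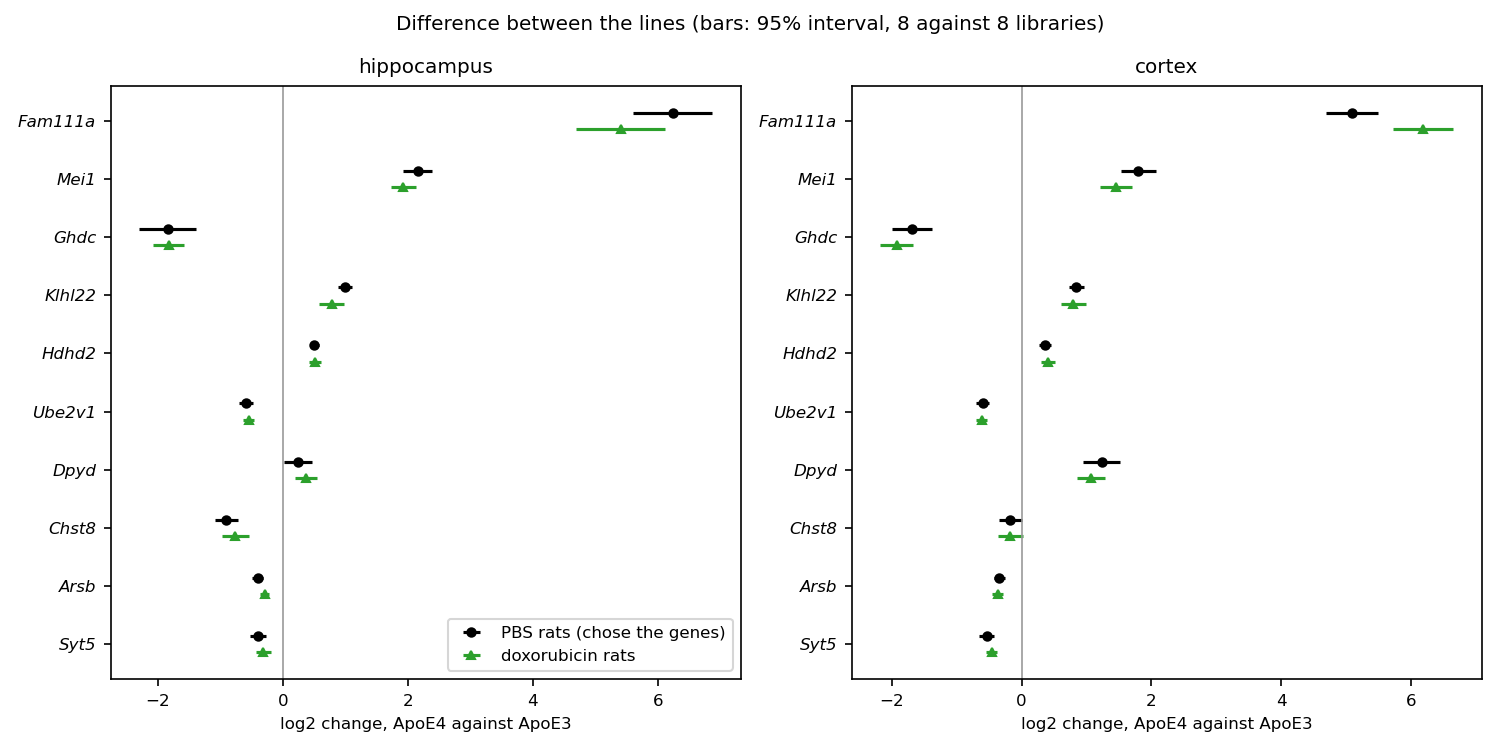
Log2 change of ApoE4 against ApoE3 for each gene in hippocampus (left) and cortex (right), in PBS rats (black circles) and doxorubicin rats (green triangles), with 95% intervals from 8 against 8 libraries. Positive values are higher in ApoE4. Every gene lies on the same side of 0 in both sets of rats, and the PBS values are those the genes were chosen on.

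The line difference itself changed with the region for 2 genes. In doxorubicin rats the hippocampal minus the cortical line difference was -0.71 for Dpyd (SE 0.12, edgeR adjusted p = 0.00282) and -0.59 for Chst8 (SE 0.14, edgeR adjusted p = 0.0372), beside 0.911% of 15472 tested genes that passed. For Dpyd the ApoE4 excess was larger in cortex, and for Chst8 the ApoE4 deficit was larger in hippocampus. With the rat as a block, which compares the 2 regions within each animal, Dpyd kept its call (edgeR adjusted p = 0.0257) and Chst8 did not (-0.60, edgeR adjusted p = 0.0745). Mei1 was at 0.46 (SE 0.15, edgeR adjusted p = 0.142), and the other 7 genes had adjusted p-values of at least 0.401.

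Set by region within a line, 7 of the 9 genes tested in ApoE3 rats and 8 of 10 in ApoE4 rats differed between hippocampus and cortex, where 62.2% and 63.1% of all tested genes passed, so the counts of these genes are not far from the background. Mei1 was higher in hippocampus by 1.96 (SE 0.09, edgeR adjusted p = 5.78e-20) in ApoE3 and 2.37 (SE 0.07, edgeR adjusted p = 1.31e-24) in ApoE4 on the log2 scale. Dpyd was higher there by 1.80 and 0.95, and Chst8 by 1.11 and 0.45. Arsb was higher there by 0.28 in each line and Ube2v1 by 0.08 and 0.11. Ghdc was lower in hippocampus, at -0.27 in ApoE3 and -0.29 in ApoE4, and so was Syt5, at -0.42 and -0.28. Fam111a was lower in hippocampus of ApoE4 rats, at -0.78 (SE 0.14, edgeR adjusted p = 1.64e-05), and was not tested in ApoE3. Klhl22 and Hdhd2 did not pass in either line. Their largest value was -0.07 (SE 0.04), for Hdhd2 in ApoE3.

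Doxorubicin was compared with PBS within each line and region, a comparison that shares its PBS libraries with the choice of the genes. None of the genes tested passed in any of the 4 comparisons with edgeR, in which 0% of all tested genes passed. All 10 were tested in 3 of the comparisons and 9 in ApoE3 hippocampus, where Fam111a did not pass the filter on low counts. At an unadjusted p under 0.05 by edgeR, 2 genes were counted in ApoE3 hippocampus, 0 in ApoE4 hippocampus, 2 in ApoE3 cortex, of which 1 was Fam111a, and 1 in ApoE4 cortex, and over all genes 1530, 1098, 1366 and 1308 were. DESeq2 called 0 of the 10 in each, and 145, 1, 77 and 37 of all genes. In ApoE3 hippocampus Mei1 was at 0.29 (SE 0.11) and Klhl22 at 0.27 (SE 0.10) on the log2 scale. Rats 49, 51 and 52 were the highest Klhl22 libraries there. In ApoE4 cortex Klhl22 was at 0.10 (SE 0.05) and in ApoE3 cortex Mei1 at 0.31 (SE 0.14).

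The largest doxorubicin value was that of Fam111a in ApoE3 cortex, at -1.02 (SE 0.27), a description that rests on few counts. The PBS libraries ran from 0.71 through a median of 0.96 to 1.54 CPM and the doxorubicin libraries from 0.16 through 0.45 to 1.07 CPM. These are 9 to 21 and 2 to 16 counts, and the gene passed the filter through the PBS libraries, 7 of which had at least 10 counts against 1 of the doxorubicin libraries, and which are also libraries the genes were chosen on. The doxorubicin ranges overlapped the PBS ones only through rat 47. In ApoE4 cortex Fam111a was at 0.06 (SE 0.17). In the authors' deposited table of doxorubicin against PBS, Fam111a in ApoE3 cortex had a log2 fold change of -1.03 with no adjusted p-value. The authors' deposited table gave an adjusted p-value to 9 of the 10 genes in ApoE3 hippocampus, where Fam111a was not listed, to all 10 in ApoE4 hippocampus, to 9 in ApoE3 cortex and to 6 in ApoE4 cortex. Mei1, Ghdc, Dpyd and Chst8 had none in ApoE4 cortex. None of those that the authors' deposited table gave was under 0.05, and the smallest was 0.183, for Klhl22 in ApoE3 hippocampus.

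**Figure D3:**
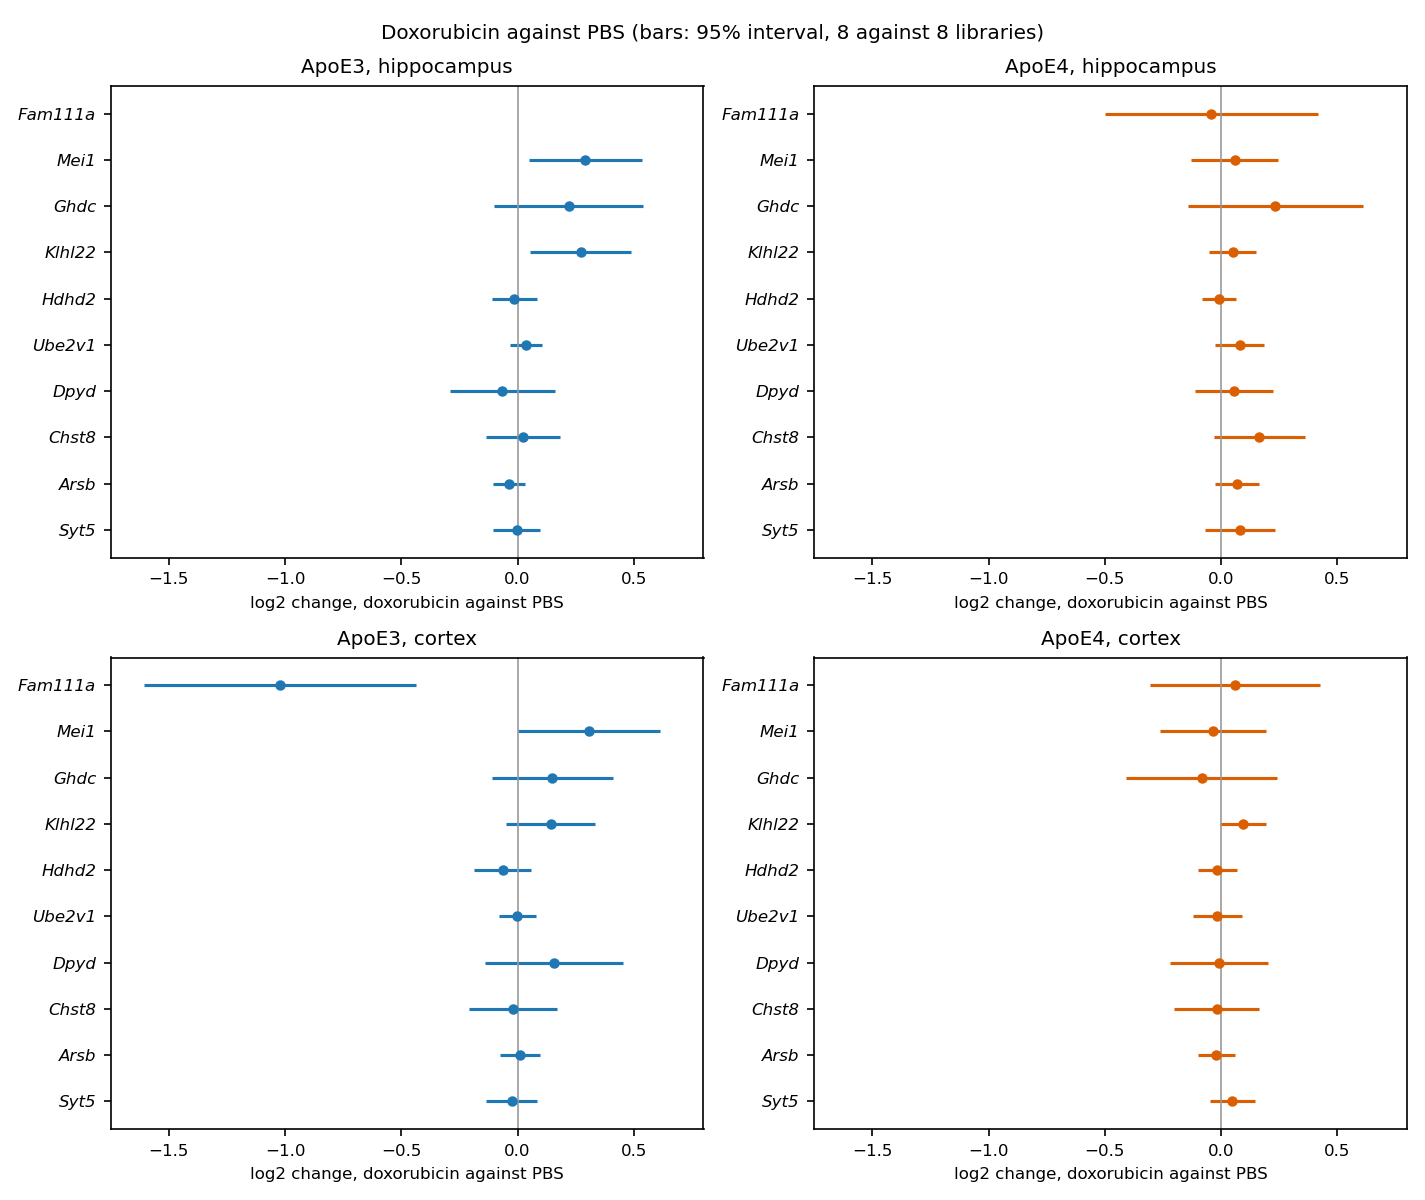
Log2 change of doxorubicin against PBS for each gene in the 4 combinations of line and region, with 95% intervals from 8 against 8 libraries. Fam111a was not tested in ApoE3 hippocampus, so that row is empty. Intervals of most genes span 0, and Fam111a in ApoE3 cortex, at -1.02, is the value farthest from it.

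The PBS and doxorubicin line differences share no library, and the same gene can be set side by side in both. The doxorubicin line difference minus the PBS one, a description that rests on the PBS libraries, was -0.83 (SE 0.54) for Fam111a in hippocampus and 1.06 (SE 0.46) in cortex. It was -0.23 (SE 0.14) and -0.34 (SE 0.18) for Mei1 and -0.22 (SE 0.11) and -0.06 (SE 0.11) for Klhl22. For the other 7 genes it lay between -0.23 and 0.14.

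Whether a rat that was high in hippocampus was also high in cortex was asked within each line, for 20 relations of 16 rats. Pearson's r of log2 CPM passed an adjusted permutation p under 0.05 in 4 of them, and Spearman's rho in 0. Fam111a in ApoE4 rats had r = 0.68 (permutation p = 0.00421, adjusted p = 0.0281) and rho = 0.69 (permutation p = 0.00438, adjusted p = 0.0876). Without rats 7 and 10, the farthest from the hippocampal median, r was 0.84 (adjusted permutation p = 0.0042). It was 0.48 within the PBS rats (exact p = 0.225, n = 8) and 0.86 within the doxorubicin rats (exact p = 0.00518, n = 8). Mei1 in ApoE4 rats had r = 0.63 (permutation p = 0.00921, adjusted p = 0.0461) and rho = 0.52 (permutation p = 0.0414, adjusted p = 0.207), and r was 0.47 (adjusted permutation p = 0.219) without rats 3 and 7, so the pooled call was lost without them. Both are PBS rats. Within the PBS and the doxorubicin rats r was 0.62 (exact p = 0.0958) and 0.72 (exact p = 0.05), and centred within sex and treatment it was 0.70 (adjusted permutation p = 0.0222). The other 2 relations were Ghdc and Klhl22 in ApoE3 rats, whose rats fall into the separate sets described above, so no pooled r is given. For Klhl22 the 13 ApoE3 rats other than 49, 51 and 52 had r = 0.09 (permutation p = 0.774) and rho = 0.21 (permutation p = 0.480). For Ghdc the 8 ApoE3 doxorubicin rats had r = -0.29 (exact p = 0.488), and the 2 sets of 4 PBS rats are too small for a relation. The 8 PBS rats for Ghdc and the 8 doxorubicin rats for Klhl22 each join separate sets, and their r, positive in both, is not given for that reason.

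**Figure D4:**
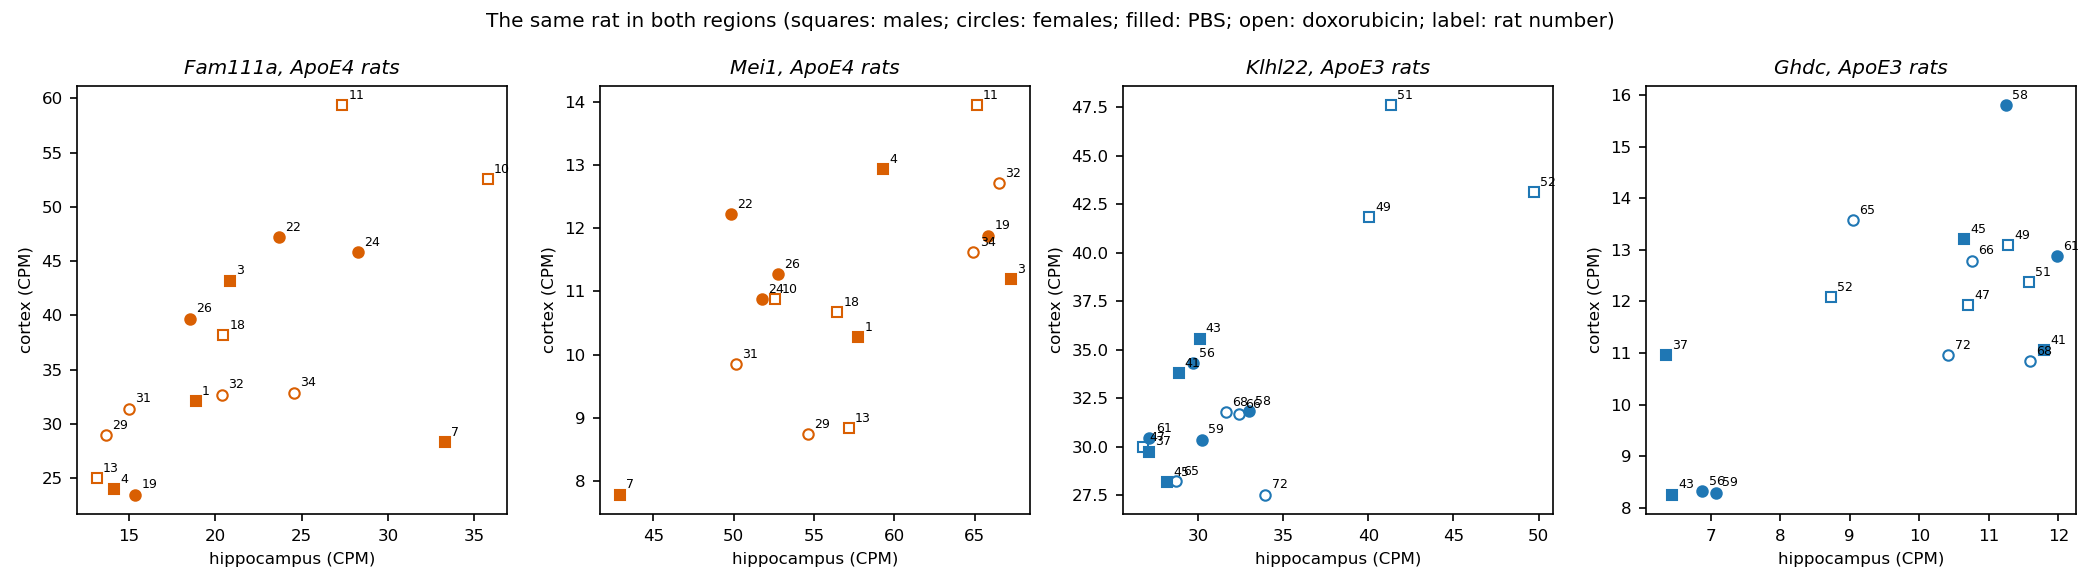
Level in hippocampus (x axis, CPM) against cortex (y axis, CPM) of the same rat, for Fam111a and Mei1 in ApoE4 rats and Klhl22 and Ghdc in ApoE3 rats, 16 rats each, labelled by rat number. Squares are males, circles females, filled symbols PBS and open symbols doxorubicin. In the Klhl22 panel rats 49, 51 and 52 stand apart at 40.1 CPM or more in hippocampus, and in the Ghdc panel rats 37, 43, 56 and 59 stand at 7.07 CPM or less.

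For each gene the most similar other gene was sought among 15885 genes by Pearson's r of log2 CPM, centred within region, over the 64 libraries. These points share line and library, so r describes the line split as much as anything else, and no p is given. Ndufs5, a subunit of mitochondrial complex I, was the most similar to Fam111a (r = 0.97), Hdhd2 (r = 0.95), Mei1 (r = 0.94) and Klhl22 (r = 0.91). Ube2v1 was the most similar to Ghdc (r = 0.93), Arsb (r = 0.93) and Syt5 (r = 0.90), and Ghdc to Ube2v1. Zfp180 was the most similar to Dpyd (r = 0.82) and Tmtc4 to Chst8 (r = 0.75).

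The genes that neighbour the 10 in the RefSeq order were read in the same doxorubicin rats, as the 3 nearest tested genes on each side. Of 60 neighbours, 9 passed in hippocampus with edgeR (15% beside 3.23% of all tested genes) and 11 in cortex (18.3% beside 14.1%). Their median absolute log2 change was 0.10 and 0.11, beside 0.08 and 0.09 over all genes. In hippocampus 4 of the 9 lay beside Chst8 and 3 beside Syt5, and 0 lay beside Fam111a, Klhl22, Hdhd2, Ube2v1, Dpyd or Arsb. Beside Syt5, Dnaaf3, which assembles dynein arms, was lower in ApoE4 by -1.19 (SE 0.23, edgeR adjusted p = 0.00723) in hippocampus and passed in cortex too (edgeR adjusted p = 1.36e-05). The cardiac troponin gene Tnni3 was lower by -1.98 (SE 0.34) and -1.21 (SE 0.28), and Tnnt1 by -1.20 (SE 0.26) in hippocampus. Beside Chst8, the transcription factor gene Cebpa was lower by -0.44 (SE 0.07) and -0.35 (SE 0.09), and the amino acid transporter gene Slc7a10 by -0.17 (SE 0.04) and -0.39 (SE 0.05). Beside Mei1, Snu13, a small nuclear ribonucleoprotein gene, was higher by 0.24 (SE 0.04) and 0.22 (SE 0.05). Beside Ghdc, Hcrt, the gene of the orexin neuropeptides, was lower by -0.89 (SE 0.23) in hippocampus and Stat3, a cytokine-signalling transcription factor gene, higher by 0.17 (SE 0.04) in cortex. The other passing neighbours, Kctd15 and Gpi in hippocampus and Desi1, Dgcr2, Jmy, Bhmt and Lsm14a in cortex, lay between -0.59 and 0.34. Fam111a, Hdhd2, Ube2v1 and Dpyd had no passing neighbour in either region.

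Lists of genes beside the 10, most of them set by known roles, were also read, 93 genes in 10 lists. The list of Ghdc is not a set of known partners. It held Hcrt, Hsd17b1, Coasy, Stat3, Stat5a and Stat5b, and Hcrt, Stat3, Stat5a and Stat5b were also read above as neighbours of Ghdc. Hcrt, which passed in hippocampus, and Stat3, which passed in cortex, are therefore counted in both results. In hippocampus 3 of 80 tested passed (3.75%, where 3.23% of all genes did) and in cortex 11 of 78 (14.1%, where 14.1% did), so these shares lie near the background. The median log2 change of the listed genes was -0.00326 in hippocampus and -0.00861 in cortex. Among the partners of Klhl22 and the ubiquitin genes of Ube2v1, 0 of 10 and 0 of 9 passed in each region. Ube2n, the catalytic partner of Ube2v1, was at -0.02 (SE 0.04) and 0.01 (SE 0.05), and Cul3, the partner of Klhl22, at -0.01 (SE 0.04) and 0.07 (SE 0.04). Among sulfate and glycosaminoglycan enzymes listed beside Arsb, in cortex Arsa (-0.14, SE 0.04) and Idua (-0.25, SE 0.07) were lower and Ids (0.18, SE 0.06) and Hyal1 (0.37, SE 0.10) were higher. Of 12 synaptotagmins and partners listed beside Syt5, 0 passed in hippocampus and 4 in cortex, Syt10 (0.68, SE 0.11), Syt2 (0.33, SE 0.08) and Syt7 (0.13, SE 0.04) higher and Syt6 (-0.25, SE 0.08) lower. Rfc2, a subunit of the clamp loader listed beside Fam111a, was higher by 0.36 (SE 0.06) and 0.24 (SE 0.06). Of the 9, 6, 9 and 7 tested genes beside Fam111a, Dpyd, Ube2v1 and Hdhd2, Rfc2 alone passed in hippocampus and in cortex.

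Markers of other cell types moved with the line in cortex of the doxorubicin rats. Of 4 microglial markers, 2 passed, beside 14.1% of all tested genes, with P2ry12 at -0.47 (SE 0.06) and C1qa at -0.45 (SE 0.07), and the summed level of the 4 ran from 163 to 247 CPM in ApoE3 and from 169 to 217 CPM in ApoE4. Of 4 astrocyte markers 1 passed, the glutamate transporter gene Slc1a2 at 0.42 (SE 0.07), and the sum ran from 1160 to 1851 CPM and from 1627 to 1975 CPM. In hippocampus 0 of 4 microglial markers passed and 1 of 4 astrocyte markers did, beside 3.23% of all tested genes. The part of these cell types in the line differences of the 10 genes was not tested.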

How the data were processed

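RNA was sequenced from hippocampus and cortex of 32 rats. STAR 2.5.2b and DESeq2 are the tools that the submitters' processing notes name, with no role given. The genome build, read counter and strandedness are not given in the sources used here. The authors deposited 4 tables of raw counts per Ensembl gene, with 92 spike-in rows and a donor sequence row. Their deposited comparison tables hold a signal per library, which is the count divided by a size factor, a log2 fold change and p-values for doxorubicin and PBS rats. Libraries held 10.8M to 20.4M counts, and this depth and 8 libraries per group limit precision. No 2 libraries were identical: at least 19271 genes differed between any pair.

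Counts without spike-ins entered edgeR 4.0.16 under R 4.3.3 (filterByExpr with a minimum of 10 counts, TMM, quasi-likelihood test, Benjamini-Hochberg adjustment over all tested genes, threshold 0.05), with sex as a covariate, and also treatment for regions within a line. The SE of a log2 change was taken as its size over the root of the F statistic. CPM used TMM, and log2 CPM a prior count of 1. DESeq2 1.42.0, other filters and other sample sets were alternatives. Correlations used permutation tests of 100000 resamples, or exact ones for 8 rats, in scipy 1.17.1. The fits were tested on simulated data.

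The members and lists were chosen with earlier results of these data known. Named genes are the 10 members, Apoe and the donor row, and the most similar gene to each member. Neighbouring genes and genes of the 10 lists that passed in doxorubicin rats were also named, at most 4 of smallest p per list and region. A few partners, Ube2n, Ube2v2 and Cul3, were named whatever their values. Regions of the same rat number come from the same animal. Over 15885 genes, the correlation of their deviations from group means was -0.05 to 0.28 (median 0.17), over 0.1 in 26 of 32 rats. RefSeq gene positions (GRCr8) matched 13222 of 15432 symbols, all 10 members included. Some genes that these rules name are left out of the text.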

Additional observations from a re-analysis of the deposited data

Results flagged for a closer look

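Of the 80 groups of 8 libraries, 1 per gene, region, line and treatment, 6 had a library whose gap to the nearest other was large for the range of its group. Chance gives this in about 5% of groups. Fam111a in cortex of ApoE3 doxorubicin rats stood out for rat 47 at 1.07 CPM, where the median was 0.45. Ghdc in hippocampus of ApoE4 doxorubicin rats stood out for rat 29 at 1.76 CPM (median 3.12). Dpyd in hippocampus stood out for rat 66 of the ApoE3 doxorubicin group at 10.1 CPM (median 12.4), and for rat 10 of the ApoE4 doxorubicin group at 21.4 CPM (median 15.4). Arsb in cortex of ApoE4 PBS rats stood out for rat 7 at 130.1 CPM (median 113), and Syt5 in hippocampus of ApoE3 PBS rats for rat 58 at 166 CPM (median 140.2).

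The line difference in doxorubicin rats differed between regions, by the test of that difference with edgeR, for Dpyd (-0.71 for hippocampus minus cortex) and for Chst8 (-0.59). Both regions come from the same rats, and with the rat as a block Dpyd passed (edgeR adjusted p = 0.0257) and Chst8 did not (-0.60, edgeR adjusted p = 0.0745).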

How the results depend on the processing

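The line difference in hippocampus of doxorubicin rats had 10 calls with Fam111a and 9 without it. The call of Fam111a had to follow from the filter, so it says nothing on stability. The 10 became 6 in males alone, where 0.569% of all tested genes passed. In females alone there were 8, where 0.681% passed. The other alternatives were DESeq2, no filter, no sex term, all 32 libraries and leaving out rats 10, 31 and 72. With females alone and with each of these the count, Fam111a included, stayed within 1.5 times. In cortex the count with Fam111a was 9 with each alternative, where 4.69% to 15.7% of all tested genes passed. Without Fam111a, 8 of 9 were called in the main fit. The line difference by region went from 2 calls to 1 with the replicate block, to 1 without the filter on low counts and to 1 with DESeq2, which gave Dpyd no adjusted p. Over all tested genes 0.478%, 0.302% and 2.2% passed in these, beside 0.911% in the main fit. Under the replicate block the region differences had 7 and 8 calls, beside 62.5% and 63.5% of all tested genes. The correlations between regions went from 4 calls to 1 without the 2 farthest rats. For Klhl22 in ApoE3, the correlation without rats 49, 51 and 52, an alternative chosen after seeing the data, was 0.09. Passing neighbours were 3 of 20 in hippocampus (15%) and 2 of 20 in cortex (10%) with 1 on each side. With 5 on each side they were 13 of 100 (13%) and 18 of 100 (18%). Over all tested genes 3.23% passed in hippocampus and 14.1% in cortex. Of the genes in the 10 lists set beside the members, 6 of 80 passed in hippocampus with DESeq2 (7.5%, where 4.83% of all tested genes passed). Values near 0 that did not pass changed sign: without rats 10, 31, 58 and 72 the doxorubicin values were 0.00815 for Syt5 in ApoE3 hippocampus, 0.00918 for Hdhd2 in ApoE4 hippocampus, 0.00396 for Ube2v1 and 0.00592 for Chst8 in ApoE3 cortex and 0.0438 for Dpyd in ApoE4 cortex, and the region value of Klhl22 in ApoE4 was 0.00380 with DESeq2 and 0.00762 without the filter. With counts per total and no TMM, 9 genes in place of 8 stood apart in cortex over all rats. The cause of these changes was not tested. Low counts limit Fam111a in ApoE3 and Ghdc in ApoE4 rats.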
